A study of Mus musculus with 12 samples.

Results

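The cytosolic ribosomal protein genes are described here in mouse liver, as the annotated protein-coding genes whose symbols begin with Rpl or Rps and a digit, or are Rplp0, Rplp1, Rplp2 or Rpsa. They make up 85 of the 28036 genes in the count table. Of 184 symbols that match these names, 86 annotated pseudogenes, 4 coding genes with pseudogene symbols and 9 S6 kinases were set aside. The 85 genes comprise 43 of the large subunit, 31 of the small subunit, the 3 stalk genes and 8 paralogs or name matches, namely Rpl22l1, Rpl36al, Rpl39l, Rpl3l, Rpl7l1, Rps19bp1, Rps27l and Rps27rt. Rps19bp1, which encodes a binding partner of a ribosomal protein, and Rpl7l1, which belongs to large subunit assembly, match by name only.

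Ribosomal proteins and ribosomal RNA build the small subunit, which decodes the mRNA, and the large subunit, which joins amino acids. The proteins are needed in matched amounts, and their mRNAs are among the most abundant of most cells. In mammals most of these mRNAs start with a C followed by a run of pyrimidines, the terminal oligopyrimidine motif, through which mTOR and Larp1 control their translation and stability. The liver makes most plasma proteins and depends on a large ribosome supply.

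Poly(A) RNA was sequenced from 12 livers of C57BL/6J mice, an inbred strain, with 3 livers in each of 4 groups. EE mice had high-fat diet-induced MASH (metabolic dysfunction-associated steatohepatitis, a fatty liver disease with inflammation) and were dosed orally with Eleutheroside E, a lignan glycoside of plants, at 100 mg/kg. Resmetirom mice had the same diet-induced disease and were dosed orally with resmetirom, which activates thyroid hormone receptor beta, at 3 mg/kg. MASH mice ate the same kind of diet and received the vehicle, 0.5% CMC-Na, while control mice ate normal chow and received the vehicle too. Dosing lasted 4 weeks after 8 weeks of model establishment, 12 weeks in all. The labels do not say whether each library is a separate mouse, so p-values measure only the spread between these samples.

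Library totals ran from 17297864 to 21793311 expected counts, and 13988 genes were tested. Levels are in CPM, counts relative to a library size scaled by TMM (trimmed mean of M values) and set to a common total. A pair of libraries stood apart. In control 1, mitochondrially encoded genes took 34.9% of the counts, against 2.35% to 4.32% in the other libraries, and its TMM factor was 0.508. In resmetirom 2, major urinary protein genes took 35.7%, against 3.33% to 16.0% elsewhere, and its factor was 0.663. Factors of the other libraries lay between 0.96 and 1.41. Hepatocyte markers (7 of 7 detected in every liver) summed to between 61626 and 157519 CPM.

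Of the 85 genes, 83 had enough counts to be tested, and the remaining pair were close to absent. Rpl39l, a paralog of Rpl39 best known from the testis, had 0 to 2 counts per liver. Rpl3l, a paralog of Rpl3 known from heart and skeletal muscle, likewise had 0 to 2 counts per liver. Rpl10l was not analysed here.

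Levels per kilobase of transcript, as the median over the 12 livers, differed widely between members. Rps2, a small subunit protein near the mRNA entry channel, was first with 649 CPM per kb. The stalk gene Rplp1 was second with 475 CPM per kb, and Rpl41, whose coding sequence of 75 bases is the shortest of the members, followed with 407 CPM per kb. At the other end stood Rpl12, which binds at the base of the stalk, with 4.11 CPM per kb. Rpl5, a partner of Rpl11 and the 5S ribosomal RNA, had 5.82 CPM per kb, and the small subunit gene Rps12 had 6.05 CPM per kb. Transcript lengths came from an older annotation, and reads of some members can fall on pseudogene copies, so the place of a single gene in this order is uncertain. Pseudogene rows matched by symbol held 14.3% to 77.3% of the reads for Rps12 and at most 0.28% for Rpl5. Rpl12 had no such row, and the reason for the low values of Rpl12 and Rpl5 was not tested.

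The start of the mRNA carries the pyrimidine run, so 30-base windows centred on the RefSeq start sites (15 bases before and 15 from the start) are shown for members that the results below turn on, in build GRCm38.p6. Capitals mark the longest run of 7 or more pyrimidines, and Rplp0, Rpl10 and Rpl41 have none in this window.
Rplp2 (chr7:141447636-141447665, plus strand): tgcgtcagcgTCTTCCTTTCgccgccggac
Rps6 (chr4:86857353-86857382, minus strand): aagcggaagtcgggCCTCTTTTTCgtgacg
Rpl38 (chr11:114668565-114668594, plus strand): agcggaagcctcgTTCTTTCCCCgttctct
Rps27 (chr3:90213634-90213663, minus strand): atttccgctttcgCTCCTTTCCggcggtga
Rpl39 (chrX:37085208-37085237, minus strand): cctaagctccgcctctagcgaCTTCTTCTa
Rpl13a (chr7:45128731-45128760, minus strand): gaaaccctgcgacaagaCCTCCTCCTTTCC
Rpl35 (chr2:39005117-39005146, minus strand): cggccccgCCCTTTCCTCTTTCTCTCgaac
Rpl22l1 (chr3:28805493-28805522, plus strand): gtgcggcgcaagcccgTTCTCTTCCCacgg
Rplp0 (chr5:115559452-115559481, plus strand): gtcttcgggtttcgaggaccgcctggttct
Rpl10 (chrX:74270801-74270830, plus strand): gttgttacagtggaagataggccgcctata
Rpl41 (chr10:128549154-128549183, minus strand): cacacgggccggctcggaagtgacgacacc

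RefSeq start sites were matched for 65 of the 85 members. A run of at least 7 pyrimidines stood in a window of 34 of the 65 (52.3%), against 22.1% of 12669 protein-coding genes of the count table. A gene with several start sites counted if any of them had the feature, and the number of sites per gene was not matched. The run could lie anywhere in the 30 bases, so it need not be a terminal oligopyrimidine motif. The letters CGGAAG, searched on both strands over 300 bases (250 before and 50 after the start), were found for 44 of the 65 (67.7%), against 29.7% of the 12669 genes. They are the core of sites bound by ETS-family factors such as GABP, and a match describes the letters only.

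No ribosomal protein gene passed the test in any comparison when all 12 livers were fitted together. In the edgeR quasi-likelihood fit of all 12 livers, 0 of the 83 members had an adjusted p (Benjamini-Hochberg over all tested genes) below 0.05 in each of the 6 pairwise comparisons. The joint test of any difference among the 4 groups also called 0 of 83, beside 1.6% of all tested genes, and 6 members (7.23%) had an unadjusted p below 0.05 there, beside 19.2% of all tested genes. Limma voom called 0 in all of these, and DESeq2 called 1, Rpl10, in resmetirom against control and in the joint test. The share of all genes called by DESeq2 is not given here. On simulated data for resmetirom against control, DESeq2 called 24 unchanged genes and the edgeR fit of 12 livers called 5. The levels by liver nonetheless show how the members lay relative to the MASH livers.

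**Figure D1:**
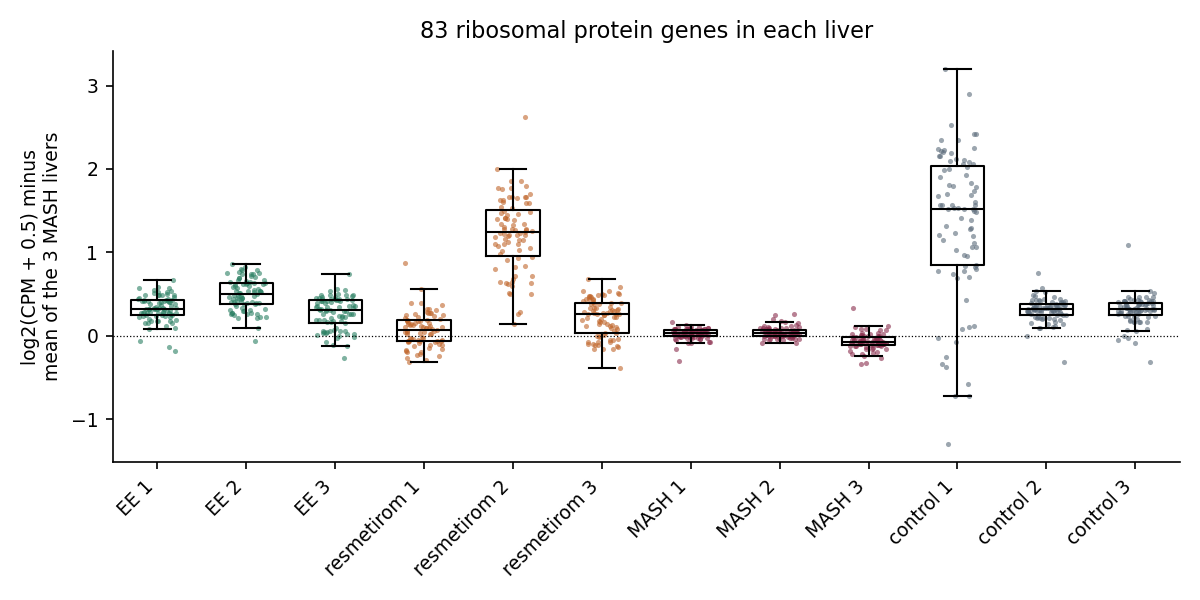
Each point is 1 of 83 ribosomal protein genes in 1 liver, as log2(CPM + 0.5) minus that gene's mean in the 3 MASH livers, with boxes for the median and quartiles and whiskers to the last point within 1.5 interquartile ranges. The median is 0.32, 0.51 and 0.31 in the EE livers, and control 1 (1.53) and resmetirom 2 (1.24) stand above the other livers.

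In each liver the members' median difference from the MASH mean was computed on the log2(CPM + 0.5) scale. It was 0.32, 0.51 and 0.31 in the EE livers, 0.07, 1.24 and 0.26 in the resmetirom livers, and 1.53, 0.32 and 0.32 in the control livers. All 9 of these livers lay above each MASH liver (0.03, 0.03 and -0.08), and resmetirom 1 was the closest to them. The interquartile range over the members was 1.19 in control 1 and 0.55 in resmetirom 2, against 0.065 to 0.36 in the other livers. Over all 12 livers the median SD of a member was 0.53 on the log2 scale, against 0.40 for all tested genes. Without control 1 and resmetirom 2 it was 0.20 for members and 0.29 for all tested genes.

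The members' share of the counts needs no scaling factor. It was 1.19%, 1.30% and 1.12% in EE livers, 1.38%, 1.48% and 1.20% in resmetirom livers, 1.17%, 1.11% and 1.09% in MASH livers, and 1.21%, 1.27% and 1.32% in control livers. The 3 MASH livers had the lowest mean share (1.12%), and EE 3 was the one liver of another group that lay below MASH 1. Scaled by TMM, the summed level was 11968, 13443 and 11650 CPM in EE livers, 9792, 22374 and 11199 CPM in resmetirom livers, 9589, 9636 and 8919 CPM in MASH livers, and 23860, 11668 and 11609 CPM in control livers. Control 1 and resmetirom 2 were high on the scaled level, and control 1 was not high on the share of all counts. With mitochondrially encoded genes taken out of the total, control 1 had the highest share, 1.86%, against 1.32% and 1.38% in the other control livers. Resmetirom 2 then had 1.54%. With major urinary protein genes taken out as well, the share was 2.46% in resmetirom 2 and 2.04% in control 1. In bulk tissue, fewer cells of a type and less RNA per cell cannot be told apart.

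**Figure D2:**
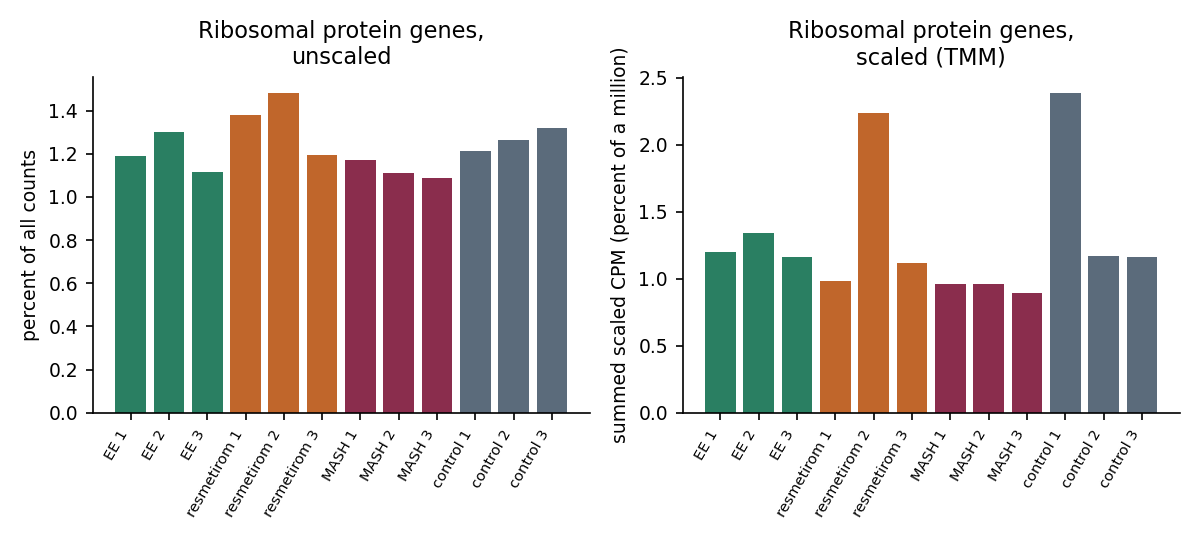
Bars give the summed ribosomal protein genes per liver, as percent of all counts (left) and as summed TMM-scaled CPM as percent (right). On the left the livers lie between 1.09% (MASH 3) and 1.48% (resmetirom 2), while on the right control 1 and resmetirom 2 stand above the others.

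For MASH against control, the comparison of the diet model with chow, most ribosomal protein genes had lower levels in MASH livers. The members' median log2 fold change was -0.86, against -0.02 over all tested genes, and 3 of 83 were positive (48.4% of all genes). None passed the test (0.0143% of all genes did), 47 had an unadjusted p below 0.05 (9.23% of all genes), and the smallest adjusted p was 0.51. In 67 of 83 members the 3 MASH livers all lay below the 3 control livers, against 9.41% of all genes, and in 0 all lay above, against 10.2%. These 67 were 36 of the 43 large subunit genes, 27 of the 31 small subunit genes, 2 of the 3 stalk genes and 2 of the 6 paralogs and name matches. Without control 1 the median was -0.31, so this 1 library decides the size of the median, while 3 members were still positive.

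The lowest fold change was that of Rpl38, a large subunit gene whose loss in mice alters body patterning. Rpl38 had 28.1, 32.1 and 34.1 CPM in MASH livers and 291, 43.4 and 35.4 CPM in control livers (log2 fold change -1.97, SE 0.70, adjusted p = 0.512). All MASH values were lower, and control 1 was far above the other control livers. Rpl36, also of the large subunit, had 45.8, 43.9 and 50.4 CPM in MASH livers and 349.9, 62.95 and 64.8 CPM in control livers (log2 fold change -1.77, SE 0.63, adjusted p = 0.512). Again the groups did not overlap and control 1 was far higher than its group. The small subunit gene Rps12 had 2.84, 3.09 and 2.19 CPM in MASH livers and 16.5, 3.55 and 3.76 CPM in control livers (log2 fold change -1.52, SE 0.56, adjusted p = 0.518), without overlap. Rps12 had only 38 to 164 counts per liver over the 12 livers. Its pseudogene rows held 14.3% to 77.3% of the reads of Rps12 and its copies, depending on the liver. With control 1 and resmetirom 2 both left out, the log2 fold change was -0.31 for Rpl38 and -0.44 for Rpl36, with adjusted p = 0.452 and 0.336. With only the MASH and control livers fitted, the log2 fold changes were -1.99 (Rpl38), -1.79 (Rpl36) and -1.54 (Rps12). With the trends against transcript length and GC content also taken out, they were -0.84, -0.76 and -0.86.

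Opposite to these, 3 members had positive fold changes, and for each of them control 1 was the lowest control liver. Rpl10, which joins the large subunit late in its maturation, had 106, 125 and 86.8 CPM in MASH livers and 80.7, 114 and 84.3 CPM in control livers (log2 fold change 0.19). Rpl3, a core protein near the peptidyl transferase centre, had 189.9, 187 and 161 CPM in MASH livers and 72.9, 222 and 221 CPM in control livers (log2 fold change 0.06). All 3 MASH livers were below control 2 and control 3 for Rpl3, and above control 1. Rpl7l1 had 48.8, 48.5 and 44.9 CPM in MASH livers and 28.6, 55.1 and 49.4 CPM in control livers (log2 fold change 0.092).

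In control 1 the members lay higher and were also more spread. In it 74 members were above and 9 below the MASH mean, and the 9 were Rpl10, Rpl3, Rpl4, Rpl41, Rpl7l1, Rpl9, Rplp0, Rps4x and Rps9. Across the 83 members the difference from the MASH mean was smaller for longer coding sequences (Pearson r = -0.47, Spearman rho = -0.50), as a description of genes that share 1 library. Over 12417 genes Pearson's r was -0.23 in that liver. The 28 members with the shortest coding sequences (up to 396 bases) had a median of 1.82, and the 28 with the longest (at least 564 bases) had 0.76. The shortest of all, Rpl41, did not follow the order, with 148, 177 and 165 CPM in control livers. In resmetirom 2 Pearson's r was -0.29 across the members and -0.32 over all genes, and in control 2 it was -0.07 across the members. For a MASH liver the difference was taken from the mean of the other MASH livers. On this reference MASH 3 had r = -0.48 and MASH 1 had r = 0.41 across the members, over a small range of differences. With the same references, the slope per log2 unit of coding length was -0.63 in control 1, -0.19 in resmetirom 2, -0.10 in MASH 3 and 0.06 in MASH 1. RNA quality per liver is not given in the labels, and its part in these values was not tested.

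**Figure D3:**
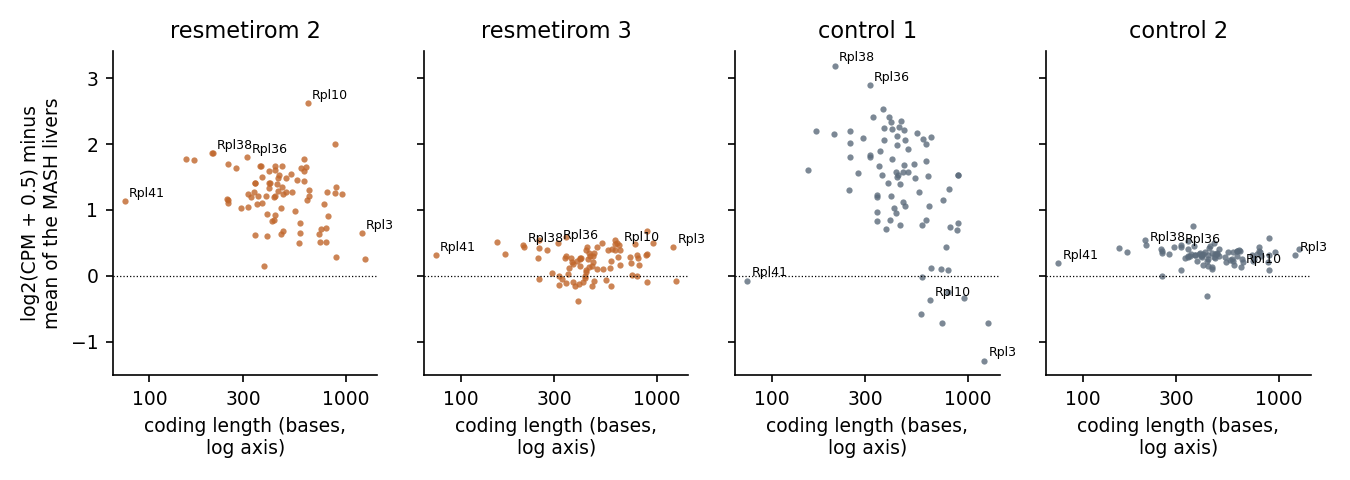
Each point is 1 of 83 members, with coding length in bases on a log axis and log2(CPM + 0.5) minus the MASH mean on the vertical axis, in 4 livers. In control 1 short members lie high (Rpl38, Rpl36) and long members low (Rpl3, Pearson r = -0.47), with Rpl41 as an exception, and control 2 is flat.

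Markers of other cells moved in the same libraries. The 5 erythroid markers summed to 3745 CPM in control 1 and 1680 CPM in resmetirom 2, against 482 to 925 CPM in the other livers. The 6 Kupffer cell markers summed to 41.8 CPM in control 1, against 193 to 575 CPM elsewhere. None of the markers of either list was at 0 in any liver. In MASH against control, with control 1 included, the 7 hepatocyte markers were all negative (median log2 fold change -0.37). So were the 5 erythroid (-1.36) and the 5 cholangiocyte markers (-0.32). All 6 Kupffer cell (0.58), 5 monocyte and macrophage (0.68) and 5 sinusoidal endothelial markers (0.42) were positive, and 4 of 5 stellate cell markers (0.21). The part of these cells in the members' levels was not tested.

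For EE against MASH, the test of the plant compound, which shares the MASH livers with the comparison above, nearly all ribosomal protein genes had higher levels in EE livers, by a small amount. The members' median log2 fold change was 0.38, against -0.02 over all tested genes, and 81 of 83 were positive (47.6% of all genes). The median was 0.24 with the trends against transcript length and GC content taken out, and 0.09 without scaling factors, where all genes moved too. The members' median transcript length was 681 bases, against 2666 for all protein-coding genes. Over 12417 genes, Pearson's r of the difference from the MASH mean with coding length was -0.16, -0.11 and -0.09 in EE livers. In MASH livers, each set against the other MASH livers, it was 0.06, -0.06 and -0.0045. None passed the test in the fit of all 12 livers (0.00715% of all genes did), 1 had an unadjusted p below 0.05 (7.49% of all genes), and the smallest adjusted p was 0.664. In 64 of 83 members the 3 EE livers all lay above the 3 MASH livers, against 16.7% of all genes, and in 0 all lay below, against 15.5%. These were 34 of 43 large subunit genes, 24 of 31 small subunit genes, all 3 stalk genes and 3 of 6 paralogs and name matches. The 7 hepatocyte markers were also all positive, with a median of 0.77 and summed levels of 99530 to 109457 CPM in EE livers and 74361 to 89786 CPM in MASH livers. Of the other cells, Kupffer cell markers were positive in 5 of 6 and erythroid markers in 5 of 5. The 5 cholangiocyte markers were all negative, with a median of -0.93, and so were the 5 stellate cell markers (median -0.52), the 5 sinusoidal endothelial markers (-0.24) and the 4 tested of 5 B cell markers (-0.73). The stellate cell markers summed to 111 to 160 CPM in EE livers and 190 to 207 CPM in MASH livers, without overlap. The 6 cell cycle genes, of which 1 was positive, summed to 3.85 to 6.15 CPM in EE livers and 7.99 to 11.6 CPM in MASH livers, also without overlap. Summed, the cholangiocyte markers had 18.7, 35.4 and 26.3 CPM in EE livers and 73.03, 60.01 and 28.7 CPM in MASH livers. The part of these cell types in the members' values was not tested.

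The stalk proteins, which bring translation factors to the ribosome, show the pattern. Rplp0 had 419, 481 and 441 CPM in EE livers and 298, 308 and 287 CPM in MASH livers (log2 fold change 0.59, SE 0.27, adjusted p = 0.664). It was the member with the unadjusted p below 0.05 (0.0481). Rplp1 had 259, 289 and 251 CPM in EE livers and 177, 180.1 and 179.9 CPM in MASH livers (log2 fold change 0.57, SE 0.28, adjusted p = 0.694). Rplp2 had 78.8, 89.7 and 80.1 CPM in EE livers and 59.2, 59.2 and 58.9 CPM in MASH livers (log2 fold change 0.49, SE 0.29, adjusted p = 0.759). For each stalk gene every EE liver was above every MASH liver.

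The highest fold changes were those of Rps27rt (log2 fold change 0.66), Rpl36 (0.64) and Rpl39 (0.63). Rpl39, which lines the exit tunnel of the large subunit, had 72.7, 86.2 and 65.9 CPM in EE livers and 48.9, 45.9 and 50.8 CPM in MASH livers, with no overlap. Rpl36 had 70.3, 80.8 and 67.8 CPM in EE livers, all above the MASH livers. Rps27rt had 3.95, 6.64 and 6.12 CPM in EE livers and 2.70, 3.35 and 4.49 CPM in MASH livers, and these overlapped. The lowest were Rpl5 (log2 fold change -0.15), Rps12 (-0.0085) and Rpl12 (0.073), which also had the lowest levels per kilobase of the 83 tested members. Rpl5 had 11.5, 11.5 and 9.98 CPM in EE livers and 11.4, 14.6 and 10.5 CPM in MASH livers, which overlapped.

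The calls in this comparison depended on which livers entered the fit. With control 1 and resmetirom 2 left out and the other 10 livers fitted, 0 of 83 members were called (0.472% of all genes were) and 61 had an unadjusted p below 0.05 (21% of all genes). When only the 6 EE and MASH livers were fitted, edgeR called 30 of 83 members, all higher in EE livers, against 5.63% of all genes in either direction and 2.95% higher. They were 13 large subunit genes, 13 small subunit genes, the 3 stalk genes and 1 paralog or name match. Among them were Rpl36 (log2 fold change 0.64, SE 0.11, adjusted p = 0.0245), Rplp1 (0.56, SE 0.094, adjusted p = 0.0245), Rplp0 (0.58, SE 0.096, adjusted p = 0.0245) and Rps27 (0.62, SE 0.10, adjusted p = 0.0248). With the replicate number as a block, 63 of 83 members were called higher in these 6 livers (20.7% of all genes in either direction, 10.6% higher). The block in the fit of 12 livers called 0. The labels give no pairing, and the block was used because same-numbered EE and MASH livers deviated together in these same values. The 63 calls are thus no separate support. With the trends against transcript length and GC content taken out in the 6 livers, 6 were called (Rpl37a, Rpl39, Rplp0, Rps16, Rps20 and Rps27), against 3.17% of all genes. The call of Rps20, whose annotated transcript of 3706 bases is the longest of the members, rested on these offsets. Without them edgeR gave it a log2 fold change of 0.18 and adjusted p = 0.305 in the same 6 livers.

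**Figure D4:**
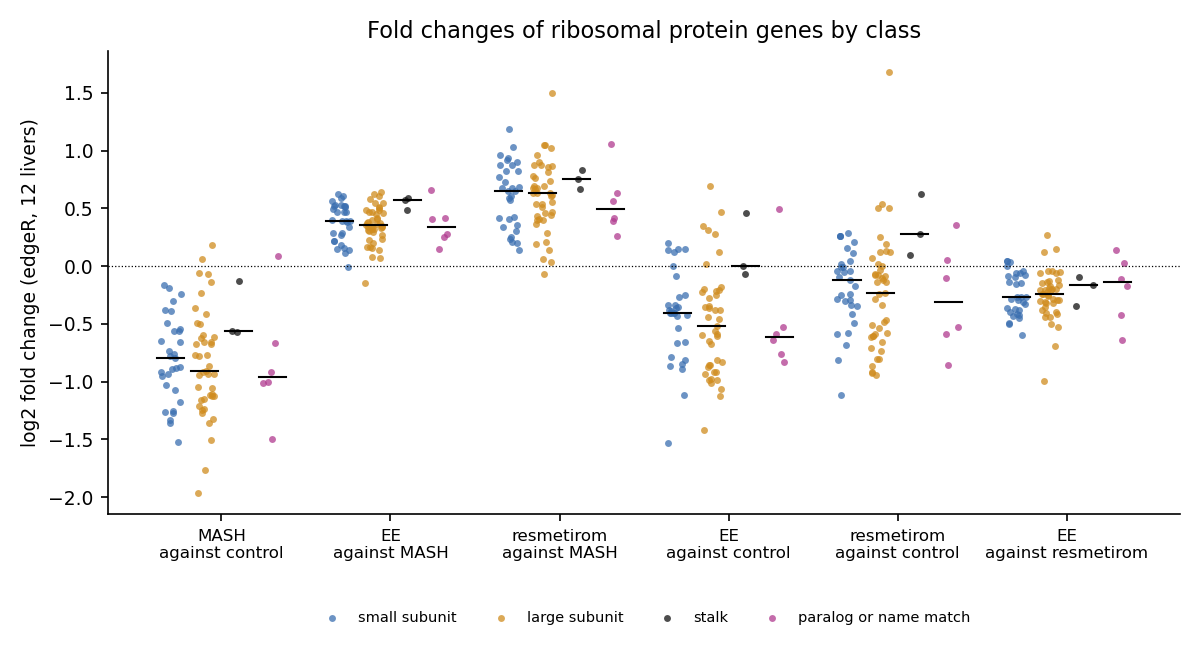
Each point is the log2 fold change (edgeR, 12 livers) of 1 ribosomal protein gene, coloured by class, for the 6 comparisons, and black lines give class medians. The members lie around -0.86 in MASH against control, 0.38 in EE against MASH and 0.63 in resmetirom against MASH, and the dotted line marks 0.

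For resmetirom against MASH, the test of the thyroid hormone receptor agonist against the same MASH livers, the ribosomal protein genes also had higher levels in treated livers, but 1 liver set much of the size. The members' median log2 fold change was 0.63, against 0.06 over all tested genes, and 82 of 83 were positive (54.2% of all genes). None passed the test (0.665% of all genes did), 18 had an unadjusted p below 0.05 (15% of all genes), and the smallest adjusted p was 0.212. In 42 of 83 members the 3 resmetirom livers all lay above the 3 MASH livers, against 11.6% of all genes, and in 0 all lay below, against 12.3%. Without resmetirom 2 the median was 0.18 and 59 of the members were positive. Positive too were all 6 Kupffer cell markers (median log2 fold change 0.38), all 4 tested of 5 B cell markers (0.61) and all 6 cell cycle genes (1.77, 3 with an unadjusted p below 0.05). Resmetirom 1 was highest in these lists, with 53.2 CPM for the cell cycle genes, against 9.51 and 7.33 CPM in the other resmetirom livers and 7.99 to 11.6 CPM in MASH livers. Other lists were mixed or negative. Hepatocyte markers were positive in 5 of 7 (median 0.53), erythroid markers in 4 of 5 (0.87) and stellate cell markers in 4 of 5 (0.025). Cholangiocyte markers were positive in 2 of 5 (-0.16) and sinusoidal endothelial markers in 0 of 5 (-0.22). The part of these cells in the members' values was not tested.

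Rpl10 had the highest fold change, with 106, 646 and 145 CPM in resmetirom livers and 106, 125 and 86.8 CPM in MASH livers (log2 fold change 1.50, SE 0.53, adjusted p = 0.22). Its value in resmetirom 2 was far above the others, and the groups overlapped. Rpsa, the laminin receptor precursor of the small subunit, had 334, 1074 and 428 CPM in resmetirom livers and 277, 279.6 and 247 CPM in MASH livers (log2 fold change 1.19, SE 0.41, adjusted p = 0.213). All resmetirom livers were above all MASH livers, by the most in resmetirom 2. The stalk gene Rplp2 had 70.1, 157 and 88.8 CPM in resmetirom livers against the MASH values above (log2 fold change 0.83, SE 0.29, adjusted p = 0.212), also without overlap. At the low end Rpl22 had a log2 fold change of -0.07, Rpl4 of 0.038 and Rpl5 of 0.063. Offsets for length and GC content called 1 member, Rpl22l1, in this comparison, and the share of all genes called there is not given here. With only the resmetirom and MASH livers fitted, the log2 fold changes were 1.52 (Rpl10), 1.21 (Rpsa) and 0.85 (Rplp2). With the offsets added to that fit they were 1.07, 0.83 and 0.33. Rpl22l1 had 1.07 in that fit without the offsets and 1.08 with them.

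Rpl22 and its paralog Rpl22l1 can replace each other in the large subunit, and in mice Rpl22 represses Rpl22l1. Rpl22l1 had 28.6, 49.7 and 18.6 CPM in resmetirom livers and 16.6, 17.8 and 12.2 CPM in MASH livers (log2 fold change 1.05, SE 0.37, adjusted p = 0.213). Rpl22 had 49.3, 63.98 and 51.8 CPM in resmetirom livers and 59.6, 57.3 and 56.3 CPM in MASH livers (log2 fold change -0.07, SE 0.19, adjusted p = 0.89). Thus Rpl22l1 did not overlap between these groups and Rpl22 did. Per kilobase, the ratio of Rpl22l1 to Rpl22 was 0.498, 0.667 and 0.308 in resmetirom livers, 0.247, 0.321 and 0.229 in EE livers, 0.239, 0.266 and 0.186 in MASH livers and 0.408, 0.334 and 0.274 in control livers. The resmetirom livers and the control livers all had a higher ratio than the MASH livers, and the EE livers overlapped with the MASH livers. This ratio has no test here and does not depend on the library scaling.

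Rps27l, a p53 target in human cells, was at 1.00, 0.831 and 1.02 of Rps27 per kilobase in EE livers, 0.893, 0.839 and 0.881 in resmetirom livers, 1.18, 1.33 and 1.18 in MASH livers and 1.42, 0.967 and 0.886 in control livers. The MASH livers were above all EE and resmetirom livers, and control 1 was the highest of the 12. Rps27 itself had 82.2, 94.96 and 77.4 CPM in EE livers and 53.8, 53.5 and 57.6 CPM in MASH livers, and Rps27l had 119, 114 and 115 CPM in EE livers and 91.6, 103 and 98.3 CPM in MASH livers. Rpl36al exceeded Rpl36a per kilobase in every liver, with ratios of 2.34, 2.14 and 3.10 in EE livers, 2.55, 2.27 and 2.40 in resmetirom livers, 2.57, 2.72 and 2.57 in MASH livers and 2.65, 2.00 and 2.14 in control livers. All MASH livers were above all resmetirom livers in this ratio, while the EE livers overlapped with every other group.

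**Figure D5:**
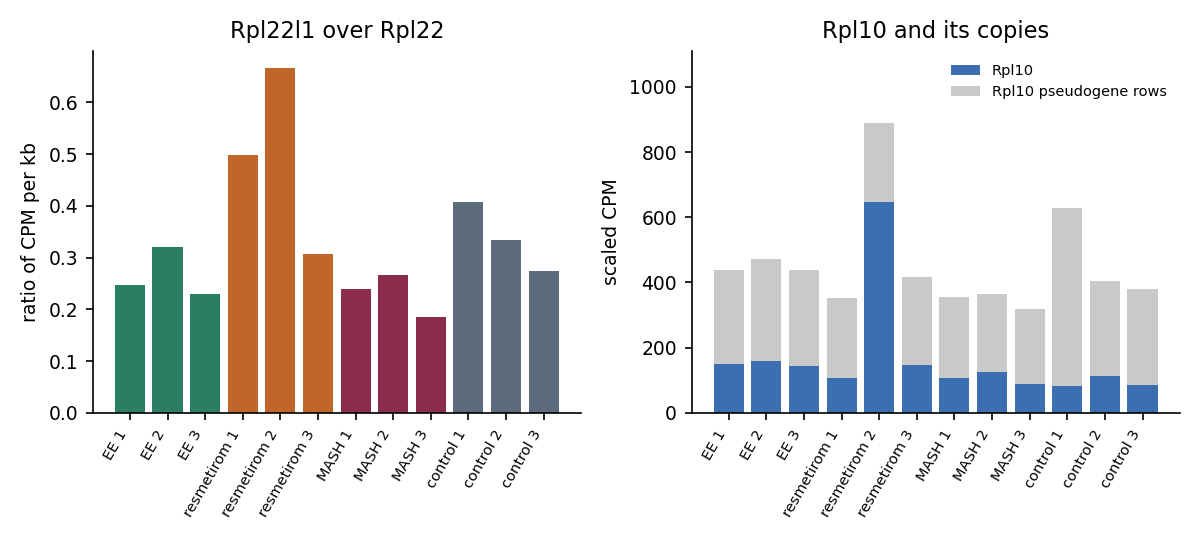
Bars per liver give the ratio of Rpl22l1 to Rpl22 in CPM per kb (left), and the scaled CPM of Rpl10 with its 3 pseudogene rows stacked above it (right). The ratio is highest in resmetirom 2 (0.667) and resmetirom 1 (0.498), and Rpl10 itself is highest in resmetirom 2, where its pseudogene rows sum to 243 CPM.

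Pseudogene rows were matched to members by symbol, and sequences were not compared. Reads of Rpl10 may be split with such copies, so its value is uncertain. Its 3 pseudogene rows summed to 245, 243 and 273 CPM in resmetirom livers, 288, 314 and 297 CPM in EE livers, 249.7, 239 and 231 CPM in MASH livers and 549, 291 and 295 CPM in control livers. They held 27.3% of the reads of Rpl10 and its copies in resmetirom 2 and up to 87.2% in control 1, with a median of 68.7%. Counted together, Rpl10 and its copies had 351, 889 and 418 CPM in resmetirom livers, 438, 473 and 439 CPM in EE livers, 355, 364 and 318 CPM in MASH livers and 629.7, 405 and 379.5 CPM in control livers. On the sum, resmetirom 2 and control 1 were both high. Pseudogene rows existed for 41 members, and for 11 of them the median share was above 10%. Besides Rpl10, the largest median shares were those of Rps23 (40.4%), Rps13 (38.3%), Rpl10a (34.0%) and Rps12 (29.6%). For Rps12 the share ran from 14.3% to 77.3% between livers.

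EE against control and resmetirom against control set the treated livers beside chow-fed mice, and share the control livers. For EE against control the members' median log2 fold change was -0.41 (all genes -0.06), with 16 of 83 positive (45.6% of all genes), 0 called (0.1% of all genes) and 4 at an unadjusted p below 0.05 (16.1% of all genes). The EE livers lay all below the control livers in 12 members and all above in 7, against 13.5% and 13.7% of all genes. Leaving out control 1 turned the median to 0.09, so its sign rested on that library. For resmetirom against control the median was -0.13 (all genes 0.02), with 26 of 83 positive (51.3% of all genes), 0 called (3.16% of all genes) and 6 at an unadjusted p below 0.05 (22.9% of all genes). Only 3 members did not overlap, 2 higher and 1 lower in resmetirom livers (9.93% and 10.9% of all genes). Its sign turned to 0.33 without control 1, to 0.04 without resmetirom 1, and to 0.0046 without resmetirom 3, and the median was -0.62 without resmetirom 2.

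In both of these comparisons Rpl10 had the highest fold change and Rps12 the lowest. Rpl10 had 0.69 in EE against control and 1.68 in resmetirom against control as log2 fold changes, with adjusted p = 0.528 and 0.096. Leaving out resmetirom 1, edgeR called Rpl10 higher in resmetirom livers than in control livers, and the share of all genes called there is not given here. Without control 1 and resmetirom 2 its log2 fold change there was 0.35, with adjusted p = 0.305. Rps12 had 2.41, 2.89 and 2.77 CPM in EE livers and 16.5, 3.55 and 3.76 CPM in control livers (log2 fold change -1.53, SE 0.56, adjusted p = 0.222), with no overlap. These rest on 47 to 53 counts in EE livers and 74 to 164 in control livers, and on a varying split with pseudogene rows. Rps27a, which encodes a fusion of ubiquitin to a small subunit protein, had 103, 105 and 91.2 CPM in EE livers, 78.3, 139 and 80.6 CPM in resmetirom livers and 268, 126 and 130.4 CPM in control livers. Its log2 fold change was -0.81 in EE and -0.82 in resmetirom livers against control livers, with adjusted p = 0.239 and 0.153. With control 1 and resmetirom 2 left out it was the 1 member called in resmetirom against control, beside 7.46% of all genes (log2 fold change -0.68, adjusted p = 0.0289).

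For EE against resmetirom the members' median log2 fold change was -0.24 (all genes -0.08), with 9 of 83 positive (42.4% of all genes). None passed the test (0.307% of all genes did), 0 had an unadjusted p below 0.05 (11.8% of all genes), and 0 had groups that did not overlap (8.7% of all genes were higher and 9.09% lower without overlap). The smallest adjusted p was 0.507, for Rpl10, with 151, 159 and 142 CPM in EE livers and 106, 646 and 145 CPM in resmetirom livers. Rpsa had 365, 455 and 391 CPM in EE livers and 334, 1074 and 428 CPM in resmetirom livers (log2 fold change -0.60, SE 0.41, adjusted p = 0.627), where resmetirom 2 was the highest and resmetirom 1 the lowest. Without resmetirom 2 the median was 0.25 and 80 of 83 members were positive. With both outlying libraries left out, 47 members were higher in EE livers without overlap (17.3% of all genes) and 0 lower, so the direction rested on resmetirom 2.

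Leaving out control 1 and resmetirom 2 gave these values in the other comparisons. MASH livers were below the remaining control livers without overlap in 76 members (20.9% of all genes), at a median of -0.30. EE against MASH had a median of 0.37, and resmetirom against MASH of 0.19, with 42 members higher and 4 lower without overlap (17.4% and 17.2% of all genes). EE against control had a median of 0.07, with 31 members higher and 14 lower (24.6% and 25.6% of all genes), and resmetirom against control of -0.13, with 4 higher and 45 lower (25.8% and 28% of all genes). The joint test then called 5 of 83 members, beside 7.78% of all genes, namely Rpl39, Rplp1, Rps16, Rps21 and Rps27. Rps16, a small subunit gene, had 138, 146 and 127 CPM in EE livers, 116, 289 and 129 CPM in resmetirom livers, 97.5, 96.1 and 91.1 CPM in MASH livers and 274, 127 and 127 CPM in control livers. The MASH livers were the lowest of all 12 for this gene.

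Scaling sets the zero line of these comparisons, and raw library totals in place of TMM moved the median of all genes by more than 0.1 in 4 of the 6. In MASH against control the median without TMM factors was -0.23 for members and 0.37 for all genes, a difference of -0.60, and 38 members were lower and 0 higher without overlap (1.97% and 24.8% of all genes). In EE against MASH it was 0.09 for members and -0.32 for all genes, a difference of 0.41, with 24 members higher and 3 lower without overlap (3.1% and 41.2% of all genes). In resmetirom against MASH it was 0.28 for members and -0.13 for all genes, a difference of 0.40, with 35 higher and 0 lower (4.48% and 13.9% of all genes). Resmetirom against control turned to 0.06 for members, which was -0.16 relative to all genes. EE against control had -0.13 for members (-0.18 relative to all genes) and EE against resmetirom -0.18 (-0.0025 relative to all genes). By their median the members thus lay lower in MASH than in control livers, and higher in EE and resmetirom than in MASH livers, on either scale, and by 0.09 in EE livers when set against library totals.

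Members varied unequally over the 12 livers. The 5 with the highest SD on the log2 scale were Rpl38, Rpl36, Rpl10, Rpl35 and Rpl35a, and the 5 with the lowest were Rps3, Rps9, Rps4x, Rpl22 and Rps3a1. Rpl35 had 92.2, 106 and 87.6 CPM in EE livers, 85.3, 217 and 78.7 CPM in resmetirom livers, 70.6, 68.6 and 64.9 CPM in MASH livers and 394, 92.7 and 92.1 CPM in control livers. Control 1 was the highest, and all MASH livers were the lowest. Rps3, a small subunit protein at the mRNA entry, had 267, 276 and 250.0 CPM in EE livers, 216, 311 and 244 CPM in resmetirom livers, 213, 205 and 186 CPM in MASH livers and 216, 249.7 and 247 CPM in control livers. Rps6, the substrate of S6 kinases downstream of mTOR, had 247, 263 and 259 CPM in EE livers, 186, 346 and 212 CPM in resmetirom livers, 212, 226 and 195 CPM in MASH livers and 467, 251 and 273 CPM in control livers. Its EE livers were above its MASH livers without overlap, while its resmetirom livers overlapped with them.

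Other genes of the ribosome pathway gave 0 calls in each comparison. Of 20 translation factors with terminal oligopyrimidine mRNAs, 15 were positive in EE against MASH and 13 in resmetirom against MASH, with medians of 0.21 and 0.22, and 5 were positive in MASH against control (median -0.16). Eef1a1, which delivers aminoacyl-tRNA, averaged 3409 ± 273 CPM in EE livers and 3178 ± 281 CPM in MASH livers (SD, n = 3 each), with overlap.

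Ribosome biogenesis genes, which act in the nucleolus, had medians of 0.31 in EE against MASH and 0.35 in resmetirom against MASH, with 27 of 30 positive in each, and -0.04 in MASH against control, with 12 of 30 positive. Fibrillarin (Fbl), the methyltransferase of ribosomal RNA, averaged 30.6 ± 2.55 CPM in EE livers and 21.99 ± 3.92 CPM in MASH livers (SD, n = 3 each; log2 fold change 0.48, SE 0.24, adjusted p = 0.697 by edgeR), without overlap. The 78 mitochondrial ribosomal protein genes, which serve the separate ribosome of the mitochondrion, had medians of 0.20 in EE against MASH (68 positive), 0.26 in resmetirom against MASH (66 positive) and -0.09 in MASH against control (30 positive). The 19 genes that control ribosomal protein synthesis, such as mTOR components, the 4E-BPs and Larp1, had medians of -0.03 in EE against MASH, -0.09 in resmetirom against MASH and -0.02 in MASH against control. The values of the cytosolic ribosomal protein genes in these comparisons were 0.38, 0.63 and -0.86, and no test compared the lists.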

How the data were processed

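The values are expected counts of Ensembl genes in 12 liver libraries, as deposited by the authors, from stranded poly(A) libraries read as paired ends, per the labels' protocols. The submitters' processing notes name fastp and GRCm39. How reads were aligned and counted, with which annotation and strand setting, is not given in the sources used here. Symbols, biotypes and lengths came from GENCODE M21 (GRCm38), start sites from RefSeq (GRCm38.p6).

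The rounded counts entered edgeR 4.0.16 (R 4.3.3) after filterByExpr and TMM scaling, in a robust quasi-likelihood test with all 12 libraries in 1 fit, 8 residual degrees of freedom and a biological coefficient of variation of 0.334. The threshold was an adjusted p of 0.05 by Benjamini-Hochberg over 13988 genes. The SE is the size of the log2 fold change over the square root of F. The fits were tested on simulated data. There the fit of all 12 libraries called 11% of 2-fold changes in MASH against control, 5% in EE against MASH and 16% in resmetirom against MASH. For 4-fold changes it called 72%, 72% and 67%. A lack of calls at changes of 2-fold or less thus does not show a lack of change. Alternatives were other scalings, filters, DESeq2 1.42.0, limma 3.58.1 voom, only the compared groups, a replicate block, left-out libraries and removed mitochondrial and major urinary protein genes. Per-library offsets for transcript length and GC content, and their combinations with other fits, were added after seeing the data.

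Without a call, the rule named the 3 members with the highest and the 3 with the lowest fold change, the 5 most and 5 least varying members, and fixed members, of which not all are reported. Rps2, Rps16 and members named for calls under an alternative or for their pseudogene rows were chosen after their values were seen. The members and lists were chosen with earlier results of these data known. Same-numbered libraries had correlated deviations from their group means above 0.1 in 8 of 18 pairs (-0.39 to 0.30). All 3 EE and MASH pairs were above it (0.28, 0.22 and 0.21), which comes from the data and not from the labels. The replicate block itself was fitted in every comparison. The result of one short list of ribosome-associated genes is not reported here.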

Additional observations from a re-analysis of the deposited data

How the results depend on the processing

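In the fits of all 12 libraries, 0 members were called under relative log expression or upper quartile scaling, no scaling factors, either filter, limma voom, removed abundant genes or the replicate block. DESeq2 called 1 in resmetirom against control and 1 in the joint test. Only the compared groups gave 30 in EE against MASH, 63 with the replicate block, a pairing taken from these data, and 6 with length and GC offsets. Without control 1 and resmetirom 2, 0 were called in EE against MASH, 1 was called in resmetirom against control, 5 in the joint test, and 1 (Rpl10) in EE against control when only the compared groups were fitted. Offsets called 1 in resmetirom against MASH. Leaving out 1 library at a time gave 0 to 1 calls in resmetirom against control. The share of all genes called is not given here for DESeq2, for offsets in resmetirom against MASH or with 1 library left out. Nor is it given for the Rpl10 call in EE against control. The median log2 fold change of members in EE against MASH was 0.0862 without scaling factors, 0.24 with offsets, 0.23 with offsets and both libraries left out and 0.23 with offsets in only the compared groups, and 0.31 to 0.43 with 1 library left out. Without mitochondrially encoded and major urinary protein genes the mean share of counts was 1.40% in EE, 1.84% in resmetirom, 1.25% in MASH and 1.65% in control livers, and without the mitochondrial genes alone 1.52% in control livers. As scaled CPM it was 0.938% in MASH and 1.57% in control livers. The replicate block in the 12-library fit left the medians at -0.82 (MASH against control), 0.38 (EE against MASH) and 0.61 (resmetirom against MASH). The labels do not say that the replicate numbers pair livers, and outside EE against MASH the block changed no call. Precision is limited by the 3 livers a group and by the spread that control 1 and resmetirom 2 add to their groups.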
